A study of Homo sapiens with 52 samples.

Results

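Chromosome 11 was described here through its contacts with the nuclear lamina, the protein meshwork that lines the inside of the nuclear envelope. Its members were all 100 kb bins of chromosome 11 (hg19) with a value in every cell, which gave 1314 of the 1351 bins the file lists for this chromosome and of 26584 measured bins in the whole genome. Bins belong to the set by position alone, and contact values played no part in choosing them. The remaining 37 bins had no value, 31 of them in 1 stretch from 51600001 to 54700000. This stretch holds the centromere in hg19 and was taken as the boundary between the short arm (p, 512 measured bins) and the long arm (q, 802 measured bins).

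The assay was DamID on single cells of KBM7, an established human chronic myeloid leukaemia line. The bacterial enzyme Dam was fused to Lamin B1, a component of the lamina, so that DNA near the lamina gained adenine methylation that DpnI can cut. All 51 cells used here belong to 1 group: clone 14, labelled diploid with a ploidy of 2N, given 0.5 nM of the inducer Shield1 for 15 h, and sorted singly from the 2% of smallest size among those double-positive for the Fucci cell cycle markers. The cells stem from 1 clone and no separate cultures are named, so they count as 1 sample, SDs describe the spread between these cells, and no p-value is given.

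Stretches of chromosome that lie at the lamina are called lamina-associated domains. In human cells they are in general poor in genes, rich in A and T, replicated late and little transcribed, while gene-dense stretches lie in the nuclear interior. Chromosome 11 is known for holding both kinds, among them gene-dense parts on each arm, the beta-globin genes on the short arm and the largest set of olfactory receptor genes of any human chromosome. No gene annotation on hg19 was used here, so regions are named by position and no gene is placed in a bin.

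The values are the authors' ratios of observed to expected signal (OE). An OE of 1 or more in a cell was counted as contact, and a bin's contact frequency is the percentage of the 51 cells with contact there. Whole reads behind the ratios could be recovered, as described under the processing. A cell had 50978 to 316463 reads in all (median 142540), of which 1801 to 17738 lay on chromosome 11 (median 7825). An OE of 1 in a chromosome 11 bin of median expected number corresponded to 2.19 reads in cell 9, the shallowest, and to 13.6 in cell 26, the deepest. A total of 94 chromosome 11 bins held no read in any cell, 55 of them in the long region from 59200001 to 78500000.

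Chromosome 11 was contacted somewhat more than the rest of the genome in most cells. On average 35.1% ± 6.08 (SD over 51 cells) of its bins were in contact, against 31.3% ± 3.55 of the rest of the genome. The chromosome 11 share ran from 14.5% in cell 10 over a median of 36.1% to 46.7% in cell 45, while the share of the rest ran from 23.8% over 30.9% to 39.6%. The groups of values overlapped, and the difference within a cell was 3.77 percentage points ± 4.90, with chromosome 11 higher in 45 of 51 cells. Its mean is smaller than its SD over cells. Cell 10 stood far below all others on chromosome 11 but had a share of 30.7% in the rest of the genome. Without it the difference was 4.16 points ± 4.04.

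**Figure D1:**
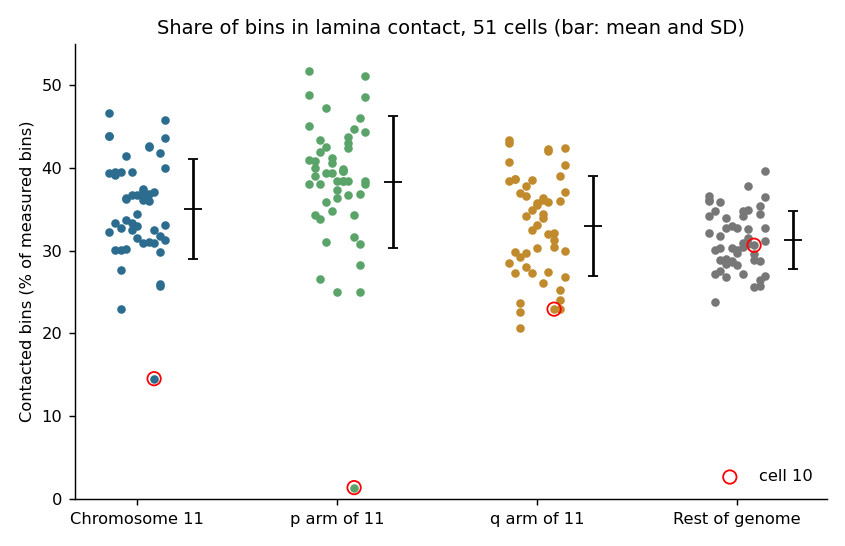
Percentage of measured bins in lamina contact in each of the 51 cells (points), for chromosome 11, its p arm, its q arm and the rest of the genome, with the mean and SD beside each group. The red circles mark cell 10, which lies at 14.5% on chromosome 11 and 1.37% on the p arm but at 30.7% in the rest of the genome.

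Among 22 chromosomes and joined chromosomes, chromosome 11 ranked 7. Its mean share lay between those of chromosome 6 (36.1%) and chromosome 7 (34.1%), by less than its own SD over cells. The chromosomes of most similar measured size were 10 (1307 bins) and 12 (1311 bins). Chromosome 11 exceeded chromosome 10, whose share was 29.1% ± 5.98, by 6.00 points ± 5.88 and was higher in 45 of 51 cells. It exceeded chromosome 12, whose share was 27.1% ± 6.83, by 8.01 points ± 6.20 and was higher in 49 of 51 cells. The spread over cells of the difference from the rest of the genome (4.90 points) ranked 10 of 22.

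Chromosome 11 shared the division of the genome into bins contacted in most cells and bins contacted in very few. Contact in at least 80% of cells was found for 315 bins, or 24.0% of chromosome 11, against 20.9% of all measured bins. Contact in no cell was found for 487 bins (37.1%, against 38.7% of all bins), of which 94 held no read in any cell. In the other 393, a count of 0 in 51 cells is compatible with contact in up to 5.88% of cells (3 counts; counting error only). The limit is for 1 bin, and these bins were picked for their count of 0, so it is too narrow for them. A further 302 bins (23.0%, against 22.1%) were contacted in over 20% and under 80% of cells. A total of 65 bins (4.95%, against 5.06%) were contacted in exactly 1 cell. These shares lie near those of all bins, and their differences were not tested.

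Contact on chromosome 11 was laid out in blocks. Bins with a frequency of at least 50% numbered 490, or 37.3% of the chromosome, against 32.1% of all bins. Most of them lay in 38 domains, defined as uninterrupted runs of at least 3 such bins. The domains covered 45.9 Mb and 34.9% of the measured bins of the chromosome, and they held 83.0% of all its contact calls. Their median length was 0.9 Mb, with a range from 0.3 to 6.7 Mb. The p arm had 12 domains (2.34 per 100 measured bins), 7 of them under 1 Mb, with a median of 0.85 Mb. The q arm had 26 (3.24 per 100 measured bins), 15 of them under 1 Mb, with a median of 0.9 Mb. Median lengths were thus close on the arms, and the 2 longest domains were on the p arm.

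**Figure D2:**
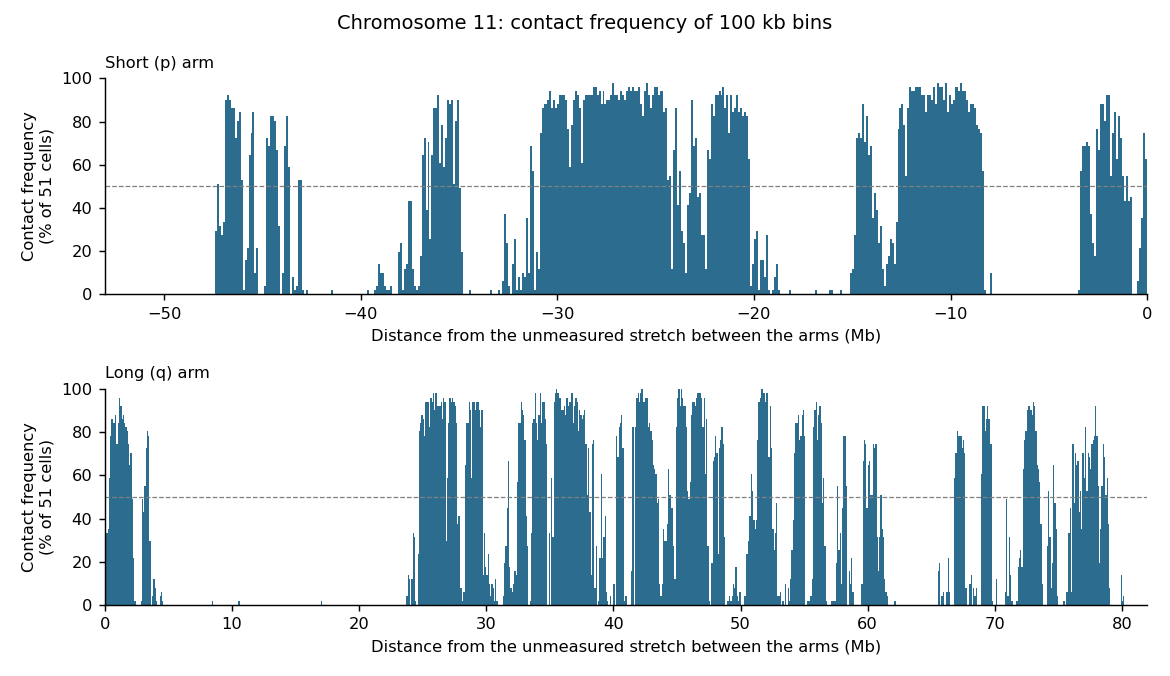
Contact frequency of each 100 kb bin of chromosome 11, as a percentage of the 51 cells, against the distance in Mb from the unmeasured stretch between the arms (p arm above, q arm below; the dashed line marks 50%). The p arm holds the 2 longest domains (6.7 and 4.4 Mb), and the q arm holds the longest region almost without contact (19.3 Mb).

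The p arm was contacted more than the q arm in most cells. Its share was 38.3% ± 7.98 (lowest 1.37%, median 39.1%, highest 51.8%), against 33.0% ± 6.08 for the q arm (20.7%, 33.9% and 43.4%; n = 51 each). The difference was 5.27 points ± 6.59, and the p arm was higher in 47 of 51 cells. Without cell 10 it was 5.81 points ± 5.42. Frequencies of 80% or more were found in 28.5% of p arm bins (146) and in 21.1% of q arm bins (169). All 6 bins contacted in every cell lay on the q arm, where cell 10 also had contact. This placement depends on cell 10. The longest p arm domain had no contact in cell 10, and its frequencies reached 98.0%, which is contact in all other cells. The q arm was close to the rest of the genome, from which it differed by 1.71 points ± 5.12, and it was higher in 36 of 51 cells.

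Contact differed most between 10 Mb segments of the chromosome. The segment from 20000001 to 30000000 was the highest, with 76.3% ± 15.3 of its bins contacted (lowest 0% in cell 10, median 80.0%, highest 95% in cell 12). It exceeded the cell's own share of the rest of the genome in 50 of 51 cells, and 68.0% of its bins reached a frequency of 80%. The segment from 60000001 to 70000000 was the lowest, with 0.0392% ± 0.196 of its bins contacted and no contact at all in 49 cells. The widest contrast on the chromosome therefore lay between the middle of the p arm and the part of the q arm near the centromere.

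On the p arm the 10 Mb segments did not follow a single trend. The segment nearest the p end was contacted in 20.5% ± 6.86 and the next one in 18.3% ± 6.47. Beyond the highest segment, that from 30000001 to 40000000 was contacted in 32.7% ± 10.0 and that from 40000001 to 50000000 in 41.8% ± 7.39. On the q arm, contact was 6.45% ± 2.58 from 70000001 to 80000000. The 3 segments that follow formed a plateau of 57.2% ± 9.71, 58.6% ± 8.95 and 49.9% ± 10.1. The first and the second of these differed by less than their SDs, and all of them exceeded the rest of the genome in at least 50 cells. Contact was lower again from 110000001 to 120000000, at 21.7% ± 9.04.

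**Figure D3:**
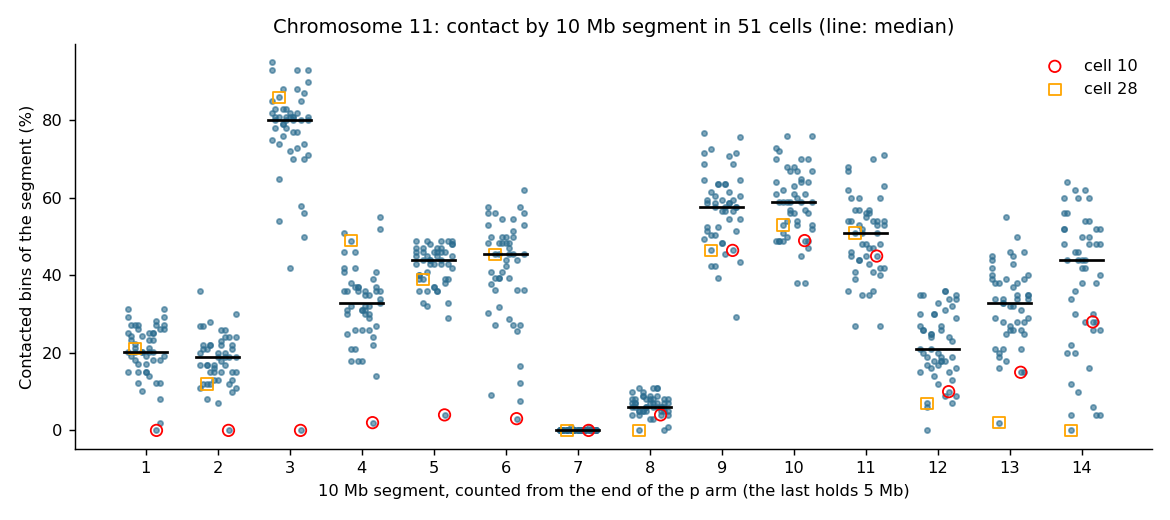
Percentage of contacted bins in each 10 Mb segment of chromosome 11, counted from the end of the p arm, in the 51 cells (points; the black line is the median). Segment 3 is the highest (median 80.0%) and segment 7 the lowest (median 0%); cell 10 (red circles) lies at 0% to 4% in segments 1 to 5 and cell 28 (orange squares) at 2% and 0% in the last ones.

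The ends of the chromosome differed from each other. The outermost 5 Mb of the p arm were contacted in 10.6% ± 4.28 of bins, against 36.0% ± 6.24 of the other chromosome 11 bins, and were lower in all 51 cells. The outermost 5 Mb of the q arm were contacted in 38.0% ± 17.7, against 35.0% ± 5.94 of the other bins. They were higher in 32 cells and lower in 19, a difference of 3.09 points ± 15.6 that is small beside its spread. The q end had the largest SD of the 10 Mb segments but holds only 50 bins, and its share ranged from 0% in cell 28 to 64.0%. Bins within 5 Mb of the unmeasured stretch were contacted in 39.8% ± 11.5 on the p side and 41.0% ± 14.1 on the q side.

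Bins near the unmeasured stretch carry less information than others. Of the 41 chromosome 11 bins with an expected number under 100, 29 lay between 48400001 and 55100000, with expected numbers from 4 to 98. Another 7 lay between 88600001 and 89700000. The median expected number of chromosome 11 bins with reads was 325.5. The domain from 49000001 to 50400000, contacted in 76.5% ± 19.5, rests for the most part on bins of low expected number, so that single reads weigh more there. With only bins of expected number at least 100 kept, the p arm exceeded the q arm by 3.74 points ± 7.13. This setting also leaves out the bins without any read. Leaving out those alone gave 4.40 points ± 7.01, against 5.27 points ± 6.59 with all bins.

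The longest domain lay on the p arm from 20700001 to 27400000 and covered 6.7 Mb. Its contacted share was 88.9% ± 16.8 (lowest 0% in cell 10, median 94.0%, highest 100%; n = 51), and its mean OE was 2.67. In 4 cells the whole of it was contacted, and in 2 cells less than 50% of it was. Inside it, frequency dipped to 58.8% at 22200001 to 22300000 and to 60.8% at 22800001 to 22900000, and its last 2 bins stood at 52.9% and 54.9%. Between the second dip and these last bins lay the longest stretch with frequencies of 80% or more throughout, from 22900001 to 27200000 (4.3 Mb), which 20 cells contacted in full. The 2 dips thus lay in the part of the domain towards the p end.

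The second domain by length was also on the p arm, from 38900001 to 43300000 (4.4 Mb). It was contacted in 88.6% ± 15.4, from 4.55% in cell 10 over a median of 93.2% to 100%, with a mean OE of 2.59. Apart from cell 10 its lowest value was 63.6%, in cell 51. A little beyond it began an almost empty region, from 43700001 to 48200000, in which only 1 contact call was made in all 51 cells. A frequently contacted and an almost uncontacted region of similar length thus lay close together.

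The domain from 90000001 to 92800000 (2.8 Mb) was the longest of the q arm and the third in all. It was contacted in 89.5% ± 11.3, with a lowest value of 60.7% in cell 28, a median of 92.9% and a highest of 100%, and 16 cells contacted it in full. No cell had contact in less than 50% of it. The q arm domain from 79400001 to 81500000 (2.1 Mb) had the highest share of all 38, 90.8% ± 16.2, and was contacted in full in 23 cells. It fell to 14.3% in cell 40, against a median of 95.2%. These q arm domains were shorter than the 2 longest of the p arm, and their shares differed from those by less than the SDs over cells.

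The domain from 15200001 to 16600000 is 1 of 5 domains of 1.4 Mb and was taken as the eighth by its position. The domain from 29200001 to 31400000 was contacted in 84.4% ± 19.7 (0% to 100%, median 90.9%) and that from 15200001 in 77.9% ± 21.0 (0% to 100%, median 85.7%). The domain from 55000001 to 56800000, on the q side of the unmeasured stretch, was contacted in 81.0% ± 25.1 (0% to 100%, median 94.4%), with 10 cells in full contact and 6 under 50%. The domain from 96400001 to 98100000 was contacted in 85.9% ± 14.7 (35.3% to 100%, median 88.2%). The bin before it, from 96300001 to 96400000, held no read in any cell, while the bin before that was contacted in 82.4% of cells, so its start is set by a bin without information.

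Longer domains were rarely missed by a cell, which their definition fixes in part. They are made of bins with a frequency of at least 50% in these same cells. Over the 16 domains of at least 1 Mb and the 51 cells there were 816 pairs of domain and cell. In 94.5% of the pairs at least 50% of the domain was contacted and in 27.3% all of it. In 7 pairs (0.858%) no bin was contacted, and 4 of these pairs belonged to cell 10. Over the 22 shorter domains and the same cells, 44.3% of 1122 pairs were full and 6.51% had no contact. A domain of few bins can be full or empty more easily, so these figures are not a comparison of like with like. Mean shares were 70.9% to 90.8% in the longer domains and 61.6% to 87.5% in the shorter ones.

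Several short domains were contacted in full in some cells and not at all in others. The domain from 131000001 to 131300000 was contacted in full in 27 cells and not at all in 11, and its share was 67.3% ± 40.8. On the p arm, the domain from 7700001 to 8000000 was contacted in full in 25 cells and not at all in 7. The last domain of the chromosome, from 133100001 to 133600000, had the lowest share, 61.6% ± 32.7, and the lowest mean OE. A group of 4 short domains lay between 4700001 and 8000000, with shares from 69.9% to 81.7%, and they were the only domains in the first 15 Mb.

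**Figure D4:**
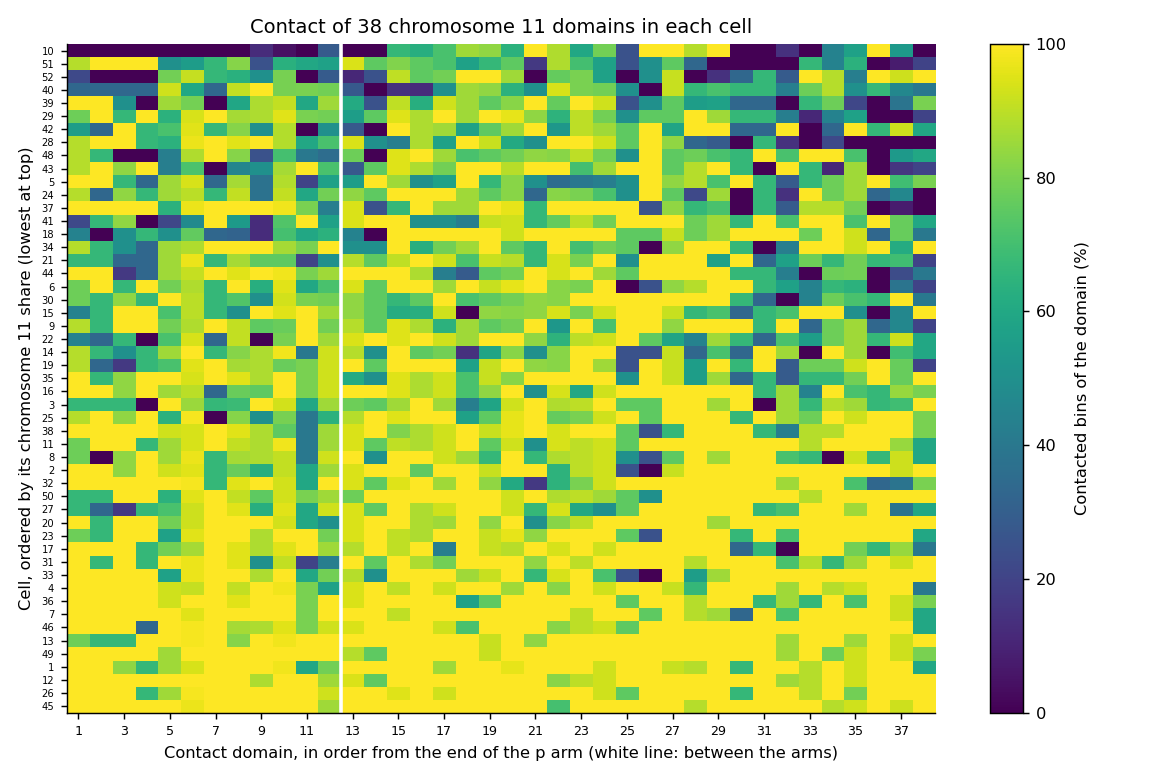
Percentage of each of the 38 contact domains (columns, in order from the end of the p arm) contacted in each cell (rows, the cell with the lowest chromosome 11 share at the top), on a colour scale from 0% to 100%. The top row, cell 10, is dark over the 12 p arm domains left of the white line and over the next 2 columns, while most of its later domains are light.

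Contact in every cell was found for 6 bins of chromosome 11 (0.457%, against 0.824% of all measured bins). Cell 10 had contact in only 1.37% of p arm bins, which holds this share down. The 6 bins lay at 90200001 to 90300000, 96900001 to 97000000, 99800001 to 99900000, 100000001 to 100100000 and, side by side, 106300001 to 106500000. The bin at 100000001 to 100100000 had the highest mean OE among them, 3.78, with a lowest value of 1.03, a median of 3.45 and a highest of 8.40. In that bin the cell with the lowest value passed the threshold only narrowly. The lowest values of the other 5 lay between 1.08 and 1.43.

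The longest regions almost without contact were 5 runs of bins with a frequency of at most 5%, which together covered 35.8 Mb and 27.2% of the measured bins. The longest, from 59200001 to 78500000 on the q arm, held 6 contact calls over its 193 bins in all cells, made in 5 cells. The run at the p end, from 100001 to 4200000, held none. With 26 of its 41 bins holding reads, 0 of 1326 values of bin and cell would allow a contacted share of up to 0.226% if all values were independent. Neighbouring bins of a cell are not independent, and the run was chosen for its low frequency, so this limit is too narrow. It covers counting error only. The other 2 lay at 116200001 to 120200000 (0.147% ± 0.594, 3 calls) and at 8600001 to 12500000 (0.352% ± 1.15, 7 calls). In all of chromosome 11, 584 bins (44.4%, against 46.7% of all bins) were contacted in at most 5% of cells.

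The longest runs of intermediate frequency, over 20% and under 80%, were much shorter. Bins at 50% or more and under 80% can also belong to a domain, so these runs and the domains overlap in part. The longest intermediate run was 1.2 Mb, from 114300001 to 115500000, with a contacted share of 62.4% ± 29.2 (lowest 0%, median 66.7%, highest 100%). It holds the domains from 114300001 to 114600000 and from 114700001 to 115400000. It was contacted in full in 5 cells and in less than 50% of its bins in 16. From 105100001 to 106100000 the contacted share was 42.2% ± 31.6 (0%, 30.0% and 100%), with 4 cells in full contact and 3 in none. From 37400001 to 38100000, 1 of 5 such runs of 0.7 Mb and chosen by its position, it was 44.3% ± 34.0 (0%, 42.9% and 100%), with 6 cells in full contact and 10 in none. Mean OE was 1.61, 1.03 and 1.16 in these 3 runs, near the contact threshold of 1 in the last 2. With the threshold at 0.5, the shares of the 5 longest intermediate runs were 59.6% to 83.5%. With it at 2 they were 15.5% to 33.2%. In each of the 3 runs the cells spanned the whole range from no contact to full contact at the threshold of 1.

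The remaining intermediate regions behaved alike in this respect. Between 130800001 and 131800000 the contacted share was 58.4% ± 32.0 (0%, 70.0% and 100%) and between 98600001 and 99500000 it was 40.3% ± 28.7 (0%, 44.4% and 100%). Only 1 cell contacted the region from 98600001 in full, and 8 cells did not contact it. It lies between a domain that ends at 98100000 and one that begins at 99600001.

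Several borders between contacted and uncontacted chromatin were steep. Between neighbouring bins of expected number at least 100, frequency differed by at least 50 points in 37 of 1103 pairs, or 3.35%, against 2.14% over the genome. The steepest steps, singled out after their values were seen, were at 94900001, where frequency was 78.4% in the bin that begins there and 0% in the bin before, and at 109800001, with 0% in the bin that begins there and 78.4% in the bin before. At 84400001 the bin that begins there was contacted in 13.7% of cells and the bin before in 90.2%. Averaged over both edges of the 16 domains of at least 1 Mb, frequency was 71.2% ± 14.7 in the outermost bin inside, 78.5% ± 13.8 in the second, 85.2% ± 11.7 in the third and 86.8% ± 10.9 in the fifth. The first bin outside stood at 26.3% ± 12.2. Farther outside, the second bin stood at 31.9% ± 12.1 and the third at 30.3% ± 9.68. The jump across the edge is fixed in part by the 50% rule that defines a domain. The rule also picks which bins are outermost, so the differences among the bins next to an edge are not free of it.

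Contact in a single cell came in runs of about the same length as elsewhere. The mean run of neighbouring contacted bins was 0.525 Mb ± 0.117 on chromosome 11, against 0.537 Mb ± 0.0784 in the rest of the genome, a difference of -0.0111 Mb ± 0.0863 that was above 0 in 22 cells and below 0 in 29. Single bins made up 36.3% of the 4550 runs. Runs of 1 Mb or more made up 14.7% and contained 53.4% of all contacted bins. The longest run of a cell had a median of 4.4 Mb, with 1.3 Mb in cell 10 and 8.2 Mb in cell 49. In cell 49 it extended from 20700001 to 28900000 and so joined the longest domain with the one behind it. The median OE of contacted bins was 2.48 ± 0.340 on chromosome 11 and 2.47 ± 0.214 in the rest of the genome.

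One cell lacked nearly all contact on the p arm. In cell 10, 7 of the 512 p arm bins were contacted (1.37%), while the other 50 cells had p arm shares from 25.0% to 51.8%. The q arm of the same cell was contacted in 22.9% of its bins, within the range of the other cells (20.7% to 43.4%). Mean OE on the p arm was 0.0858 in cell 10, against 0.650 to 1.62 in the other cells, and on the q arm 0.633, against 0.516 to 1.38. The groups of values did not overlap on the p arm and overlapped on the q arm.

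The low contact in cell 10 ran past the unmeasured stretch. All 14 domains up to the long empty region were low, the 2 q arm domains before 58200000 included, and 11 of them were at 0%. The highest of the 14 reached 28.6%, and over all their bins 3.18% were contacted, against 57.3% to 98.2% in the other cells (median 88.4%). Over the 24 domains past the empty region 65.3% were contacted, within the range of the other cells (54.0% to 97.5%, median 84.1%). There, 17 domains had contact in at least 50% of their bins and 5 were contacted in full, while 4 were at 0%.

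Reads on the p arm were few in cell 10 but not absent. Of its 78262 reads, 132 lay on the p arm of chromosome 11 and 1669 on the q arm. The p arm therefore held 7.33% of the chromosome 11 reads, against 22.3% to 54.0% in the other cells (median 40.7%). In the 216 p arm bins contacted in at most 5% of cells, cell 10 had 14 reads, against 6 to 414 in the other cells (median 44.5). In that class 4.63% of bins were above 0, and 6 other cells had fewer. Mean OE there was 0.0175 in cell 10, against 0.00656 to 0.135 in the other cells (median 0.0324). In the 368 q arm bins of the same class, 6.52% were above 0 in cell 10, and 14 other cells had fewer. Mean OE in these q arm bins was 0.0344 in cell 10, against 0.00714 to 0.111 in the other cells (median 0.0368). Whether cell 10 carried fewer copies of this DNA was not tested, so missing contact and missing DNA are not told apart here.

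Such low contact of an arm was rare and was also found on other chromosomes. Among 27 arms with at least 50 bins and a mean share of at least 20%, in 51 cells, 7 of 1377 pairs of arm and cell (0.508%) lay under 10% of the arm's mean. The p arm of chromosome 11 in cell 10 was 1 of them, at 3.57% of the mean, and ranked 4 from the lowest. The lowest were the q arm of chromosome 16 in cell 31 and the p arm of chromosome 10 in cell 42, both at 0%. In cell 10 none of the 25 arms of other chromosomes lay under 50% of its mean, and they ranged from 55.8% to 133%. The next lowest p arm share of chromosome 11 was 65.3% of the mean, in cell 18.

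In other cells smaller parts were low. In cell 28, 1.33% of the 150 bins beyond 120000001 were contacted, against 11.3% to 56.7% in the other cells (median over all cells 34.0%). Its shares were 2% from 120000001 to 130000000 and 0% beyond 130000001. In cell 51 no bin from 110000001 to 120000000 was contacted, against a median of 21.0%. Cell 52 had no contact in 7 of the 38 domains, the most after cell 10, which had none in 15. In 24 cells every domain was contacted at least in part.

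Cells with more contact elsewhere also had more on chromosome 11. The share of chromosome 11 correlated with that of the rest of the genome over cells (Pearson's r = 0.592, Spearman's rho = 0.617, n = 51, r = 0.534 without cells 26 and 46, the farthest from the median of the rest of the genome). Without cell 10, the farthest on chromosome 11, the values were r = 0.662 and rho = 0.637. The chromosome 11 share also correlated with the reads of the cell (r = 0.518, rho = 0.476, and r = 0.432 without cells 26 and 49, the farthest in reads). The difference from the rest of the genome correlated little with reads (r = 0.134, rho = 0.133, r = 0.0846 without the same cells). The cells share 1 source, both shares of a cell come from 1 library, and these values are descriptions.

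Domains of chromosome 11 varied together from cell to cell, most of all those of the same arm under 5 Mb apart. For each domain the share of the rest of the genome was subtracted within each cell before Pearson's r was taken over cells. Over 36 pairs of next domains on the same arm the median r was 0.464, and all of them were above 0. The median was 0.457 for 48 same-arm pairs with centres under 5 Mb apart, 0.233 for 147 pairs 5 to 20 Mb apart and 0.209 for 196 pairs farther apart. Between the arms it was 0.144 over 312 pairs, and between chromosome 11 domains and those of other chromosomes 0.0234 over 22724 pairs. The subtracted share includes the domains of other chromosomes. The value between chromosomes is therefore fixed in part by the subtraction and is not a like comparison with those inside chromosome 11. All of these share libraries and depth, and pairs share domains.

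**Figure D5:**
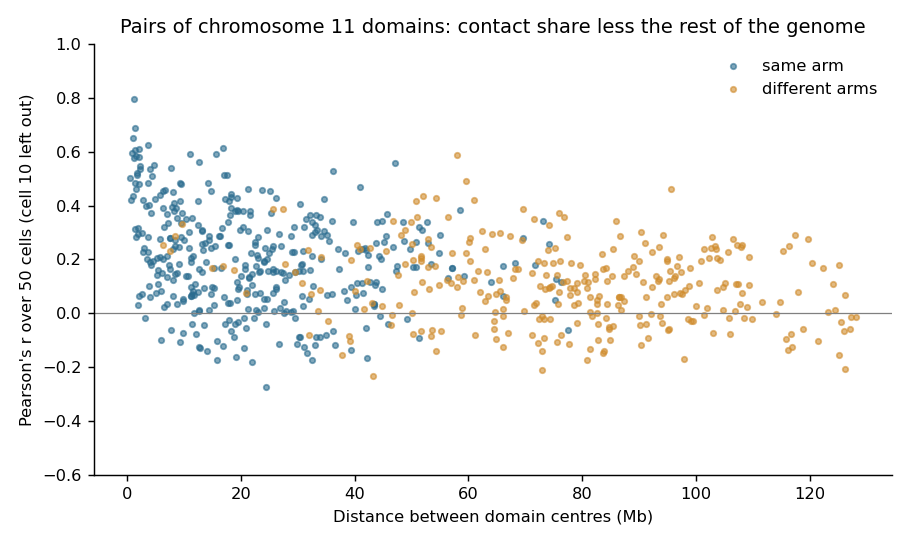
Pearson's r over 50 cells (cell 10 left out) between the contact shares of 2 chromosome 11 domains, each less the share of the rest of the genome in the same cell, against the distance in Mb between domain centres. Pairs on the same arm (blue) are highest at short distance (median 0.423 under 5 Mb) and pairs on different arms (orange) scatter around a median of 0.100.

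Cell 10 raised these values, most of all on the p arm. Without it, the median for 66 pairs of p arm domains was 0.248, against 0.386 with it, while the median for 325 pairs of q arm domains was 0.184 without it and 0.207 with it. The median between arms was 0.100 without it. The shares of the whole arms, each less the rest of the genome, correlated with r = 0.425 (rho = 0.350, n = 51). Without cell 10 the values were r = 0.358 and rho = 0.315, and without cells 10 and 40, the farthest from the median on the p arm, r = 0.235 and rho = 0.272. The relation between the arms thus rests in part on a few cells.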

How the data were processed

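Single-cell DamID profiles of Dam-Lamin B1 were analysed in 51 KBM7 cells of 1 group; cell 47 of the 52 labelled cells was not analysed here. The deposited values are the authors' ratios of observed to expected signal (OE) per 100 kb bin. Cutadapt, Bowtie2 2.1.0 and hg19 are named in the submitters' processing notes; how the expected value was made is not stated in the labels. Multiplying each ratio by a whole expected number per bin and dividing by a cell-specific factor gave whole reads (100% of values, tolerance 0.02 reads). The procedure returned 99.9985% of the reads in simulated data of 24599 bins. PCR reads carry no molecular identifiers, and limits cover counting error only.

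Analyses used Python 3.11.15, numpy 2.4.6, pandas 2.3.3 and scipy 1.17.1. Contact was an OE of at least 1. Named were, with ties settled by the lower start, the 8 longest domains, the 5 longest runs at a frequency of at most 5%, the 5 longest of intermediate frequency, the extreme 10 Mb segments and the cells with the highest and lowest chromosome 11 share; other regions, borders and cells were named after their values were seen. Members, regions and rules were chosen with earlier results of these data known. No test was made, since the cells are 1 sample.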

Additional observations from a re-analysis of the deposited data

How the results depend on the processing

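No paired analysis was possible because no 2 groups of cells share replicate numbers; differences were taken within each cell. Of 247 values under the alternatives run, 213 stayed within the spread between cells (for counts within 1.5 times, for the correlation within 0.1, for shares of bins within the 95% Wilson interval), and 34 moved further, 14 of them shares of named regions. Only differences and the correlation could change sign, and none of them did. Some alternatives left out no bin of a named region, so its value could not move. The spread between cells was wide in many regions, so staying within it is a weak mark of stability. Leaving out cell 10 was chosen after the data were seen. With the contact threshold lowered to an OE of 0.5, the chromosome 11 share was 42.8%, bins of frequency 80% or more made up 33.2%, bins contacted in no cell 28.2%, and the mean run was 0.656 Mb. With the threshold raised to 2, these values were 22.5%, 3.73%, 47.1% and 0.319 Mb, and 11 cells in place of 6 lay below the rest of the genome. The directions of the shifts in the share and in both classes of bins follow from the threshold. Why the mean run and the number of cells below the rest shifted was not tested. After all cells were thinned to 50978 reads, bins of frequency 80% or more made up 19.3%, bins contacted in no cell 34.4%, and the mean run was 0.402 Mb; the cause was not tested. Bins contacted in no cell made up 39.9% in odd-numbered cells, 40.6% in even-numbered cells, 32.2% without bins that held no read and 33.0% with an expected number of at least 100. The number of cells below the rest was 2 in odd-numbered cells, which are fewer, and 11 with an expected number of at least 100. Counting runs of 1 bin gave 61 domains. Raw shares gave a correlation between the arms of 0.589. The difference from the rest of the genome ranged from 2.61 to 4.47 points and that between the arms from 3.74 to 5.81 points. The 8 longest domains, with ties settled by the lower start, stood at 46.1% to 69.7% with the threshold raised to 2. Calls of single bins are least precise in cell 9, where an OE of 1 is 2.19 reads.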
